A study of Mus musculus with 20 samples.

Results

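The 41 genes described here encode the secreted Wnt ligands (19 genes), the R-spondins (4), the Frizzled receptors (10), the secreted Frizzled-related proteins (4) and the Dickkopf proteins (4) that carried a probe on the array, out of 25043 named genes in all. They were chosen by name: the gene name printed in the scanner output began with Wnt, Fzd, Dkk, Sfrp or Rspo followed by a number. A gene counted as measured in a comparison when 6 or more of the 12 arrays of BRAFV600E against Cre control, or 4 or more of the 8 of MEKi against Vehicle, had its probe well above background. By that filter 32 genes were measured in the former and 33 in the latter, 31 in both and 7 in neither. The 7 were Wnt3a, Wnt7a, Wnt10a, Wnt16, Rspo2, Fzd10 and Dkk1. Wnt2b was measured in the first comparison alone, and Wnt8b and Sfrp4 in the second alone.

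RNA of whole intestinal tissue from C57BL6/j mice was hybridised to 20 arrays, 1 mouse each. Cre control mice (6 arrays) were VillinCreER/0 and carried no mutant allele, while BRAFV600E mice (6 arrays) were VillinCreER/0/BrafV600E-LSL/+. Both groups were 8 to 12 weeks old, received 3 daily doses of 2 mg tamoxifen and were sampled 3 days after the last dose. MEKi (4 arrays) and Vehicle (4 arrays) mice carried the mutant allele, a genotype that the figure legends give and the labels do not. They received 2 doses of 1 mg tamoxifen and then 3 injections of the MEK inhibitor PD184352 or of its carrier, and no age is stated for them in particular, while mutant mice were in general induced at 8 to 12 weeks. The Villin promoter drives the recombinase in gut epithelium alone, whereas the tissue also holds stroma, muscle, nerve and immune cells. In such bulk RNA, fewer cells of a type and less RNA per cell cannot be told apart. The first comparison addresses the response to the oncogene and the second the part of MEK activity in mutant tissue.

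Wnt ligands are lipid-modified secreted proteins that bind a Frizzled receptor together with the co-receptor LRP5 or LRP6, which stabilises beta-catenin and turns on TCF/LEF target genes. In the intestinal crypt this pathway maintains stem cells. R-spondins amplify it by binding LGR receptors and removing the ubiquitin ligases RNF43 and ZNRF3, which otherwise clear Frizzleds from the cell surface. Secreted Frizzled-related proteins bind Wnts outside the cell, and Dickkopf proteins (other than Dkk3) block the LRP co-receptor. In the small intestine Paneth cells make Wnt3, and stromal cells below the crypt make further Wnts and R-spondins.

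All 11 small intestine markers stood well above background on every array, while Hoxb13 and Hoxd13, markers of the distal colon, were on 0 of the 6 Cre control arrays. Of 15 MAPK output genes, 12 rose and 1 fell in BRAFV600E against Cre control, and 0 rose and 7 fell in MEKi against Vehicle. Slide 1 held the 6 Cre control arrays with BRAFV600E replicates 1 and 2, and slide 2 held BRAFV600E replicates 3 to 6. On slide 3 the rows held 1 group each, so that row and group cannot be told apart there. On Cre control replicates 2, 3 and 5 the slope of the spike-in controls lay outside the range accepted by the scanner software (0.773, 0.843 and 0.759). On slide 2 it was 0, also outside that range. Vehicle replicate 2 stood apart: the summed signal of exocrine pancreas markers, as a multiple of the array's 75th percentile, was 1912 there and at most 9.39 on any other array. BRAFV600E replicate 2 had the lowest mean small intestine marker level, 4.90 (log2) against at least 5.79 on the other BRAFV600E arrays. Y-linked signal was above the midpoint of its range on 3 of 6 Cre control, 4 of 6 BRAFV600E, 4 of 4 MEKi and 2 of 4 Vehicle arrays.

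In BRAFV600E against Cre control, 6 of the 32 measured genes fell (Sfrp5, Wnt3, Fzd9, Wnt2, Wnt4 and Rspo3) and 0 rose. This is limma's moderated test with Benjamini-Hochberg adjusted p under 0.05 over all 19040 genes tested, of which 12.4% were called, 6.18% higher and 6.26% lower. At an unadjusted p under 0.05 the count was 12 of the 32 (37.5%), against 30.1% of all genes tested. The median log2 fold change was -0.47 over the 32 genes and -0.02 over all genes tested. Of the 32 genes 23 were negative, against 9824 of all 19040 genes tested. The members' median was -0.28 with probes well above background on every array and -0.29 without the 3 Cre control arrays of out-of-range spike-in slope. The latter setting kept the BRAFV600E arrays of slide 2, whose slope was 0. The groups did not overlap for 5 of the 32 genes (15.6%), against 7.36% of all genes tested. Without scaling between arrays the median of all genes moved to 0.79 and that of the members to 0.34. The 3 calls that were lower then were Sfrp5, Wnt3 and Fzd9, and 5 were higher (Fzd2, Fzd5, Fzd6, Fzd7 and Wnt5a). With quantile normalization 5 were lower and 1, Fzd6, was higher.

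In MEKi against Vehicle, Sfrp5 rose and 0 of the 33 measured genes fell by the same test, against 1.98% called of all 19231 genes tested (1.09% higher and 0.884% lower). At an unadjusted p under 0.05 the count was 8 of the 33 (24.2%), against 16.4% of all genes tested. The 8 include Dkk2, which met the filter through the MEKi arrays alone (0 of 4 Vehicle arrays well above background). The median log2 fold change was 0.31 over the 33 genes and 0.04 over all genes. Of the 33 genes 23 were positive, against 10511 of all 19231 genes tested. The members' median was smaller under several alternatives, 0.07 with normexp background correction, 0.18 with array weights and 0.20 with probes well above background on every array. Groups did not overlap for 3 of the 33 genes (9.09%), against 12.2% of all genes tested, so the share was not above the background. Of the 31 genes measured in both comparisons, 19 (61.3%) had opposite signs in them. That share was 70.2% over all 18577 genes measured in both.

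**Figure D1:**
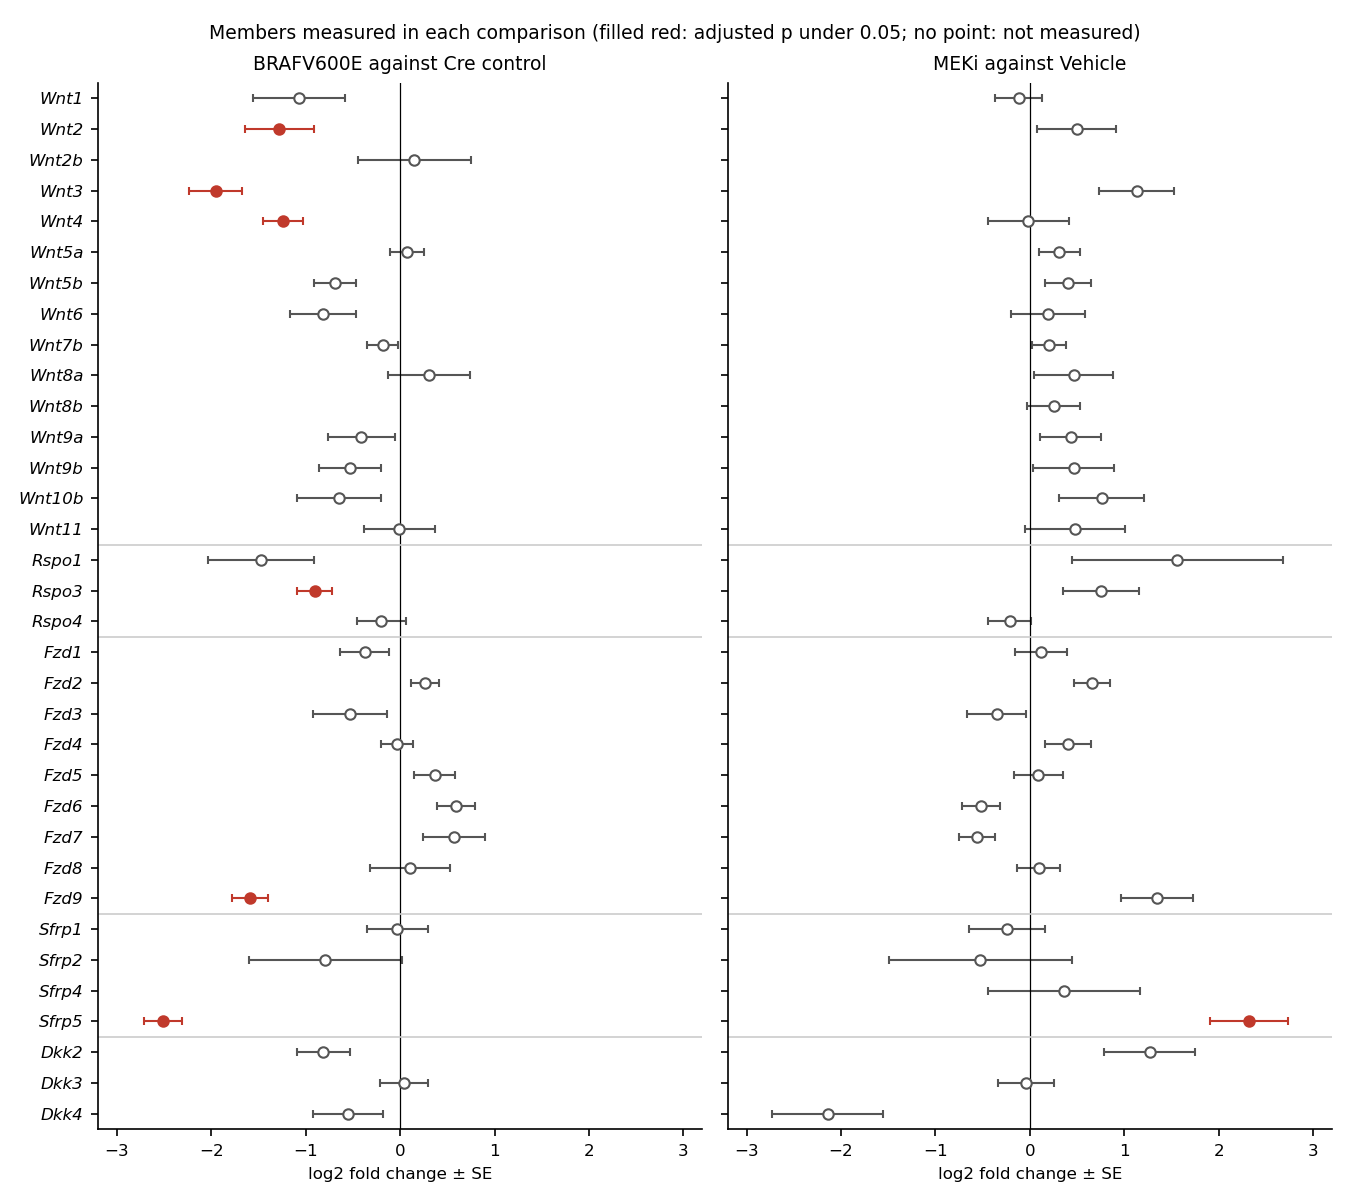
Log2 fold change ± standard error (x axis) of each measured gene (y axis, grouped by role) in BRAFV600E against Cre control (left, 6 against 6 arrays) and MEKi against Vehicle (right, 4 against 4), with filled red points for an adjusted p under 0.05. The 6 filled points on the left all lie below 0, and Sfrp5 on the right, at 2.32, is the single filled point there.

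The promoters of Sfrp5, Wnt3 and Fzd9 are shown because these genes fell together in BRAFV600E tissue under every alternative setting that measured them. Each is the 250 bases before the start of the gene, 5′ to 3′ along the gene's strand, from RefSeq (build GRCm38). Capitals mark the only match to a searched motif, a CACGTG E-box 88 to 83 bases before the start of Fzd9.
Sfrp5, chr19:42202253-42202502, minus strand: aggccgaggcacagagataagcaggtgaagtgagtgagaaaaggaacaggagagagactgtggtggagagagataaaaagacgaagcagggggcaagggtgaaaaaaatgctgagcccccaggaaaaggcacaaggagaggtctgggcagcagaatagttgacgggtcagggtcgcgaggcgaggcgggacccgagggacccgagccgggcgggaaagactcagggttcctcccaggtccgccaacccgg
Wnt3, chr11:103773925-103774174, plus strand: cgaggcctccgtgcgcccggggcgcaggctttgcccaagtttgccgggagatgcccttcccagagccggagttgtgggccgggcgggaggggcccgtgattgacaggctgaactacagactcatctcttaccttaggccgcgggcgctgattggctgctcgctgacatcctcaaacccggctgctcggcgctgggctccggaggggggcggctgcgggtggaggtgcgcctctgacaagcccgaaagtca
Fzd9, chr5:135251048-135251297, minus strand: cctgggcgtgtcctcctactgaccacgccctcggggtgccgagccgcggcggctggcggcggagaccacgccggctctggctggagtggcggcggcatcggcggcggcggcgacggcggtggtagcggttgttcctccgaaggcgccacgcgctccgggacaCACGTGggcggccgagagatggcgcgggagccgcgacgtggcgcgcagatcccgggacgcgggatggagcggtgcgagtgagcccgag
The RefSeq table held promoters of 27 of the 41 genes, among them 5 of the 6 that fell, Rspo3 being the exception. Searched on both strands were CTTTGAT (TCF/LEF), CCGGAAG (ETS), TGANTCA (AP-1) and CACGTG (E-box), which do not overlap in these windows. Among the 5 genes the E-box of Fzd9 was the single match. Of the 27 genes, 2 held CTTTGAT (Wnt5b and Wnt11), 1 held CCGGAAG (Fzd10), 1 held TGANTCA (Wnt5b) and 3 held CACGTG (Rspo4, Fzd9 and Wnt9a). Among all 32851 promoters of that length the shares were 3.21%, 6.91%, 6.75% and 6.02%. Median GC was 68.8% over the 30 promoters of these genes (range 48.4% to 87.6%) and 52.4% over all promoters, with a median of 22 CpG dinucleotides (range 4 to 48) against 6. The 5 that fell spanned 59.6% to 85.2% GC and 13 to 44 CpG dinucleotides.

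Among the Wnt ligands, 3 of 14 measured genes (21.4%) fell in BRAFV600E against Cre control and 0 rose. Of all genes tested 6.26% were called lower and 6.18% higher. A negative log2 fold change was found for 11 of the 14 (median -0.59) and for 9824 of all 19040 genes tested. Wnt3, the Paneth cell ligand that supports crypt stem cells, was measured by a probe at chr11:103677409-103677468 (mm9). Its level, as log2 signal relative to the array's 75th percentile, ran from -2.55 to -2.03 on the 6 Cre control arrays (median -2.33) and from -5.47 to -3.45 on the 6 BRAFV600E arrays (median -4.21). Every BRAFV600E array lay below every Cre control array, and the probe stood well above background on 4 of the 6 BRAFV600E arrays. The mean level was -2.30 ± 0.20 (SD, n = 6) in Cre control and -4.25 ± 0.70 (SD, n = 6) in BRAFV600E, a log2 fold change of -1.95 (SE 0.28, and limma adjusted p = 1.25e-03), or 3.87-fold lower. Within slide 1, where both groups were present, it was -2.55 (SE 0.31, limma adjusted p = 5.85e-03). Here and below, values within slide 1 set the 6 Cre control arrays against BRAFV600E replicates 1 and 2 alone. Replicate 2 was the array with the lowest mean small intestine marker level.

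Markers of Paneth cells moved with Wnt3. Of the 7 Paneth cell markers measured, 4 fell and 0 rose in BRAFV600E against Cre control: Lyz1 by 2.01, Itln1 by 2.25, Mmp7 by 2.10 and Defa24 by 0.96 on the log2 scale. The summed signal of the 7 genes, as a multiple of the array's 75th percentile, ran from 835 to 1502 on Cre control arrays and from 238 to 787 on BRAFV600E arrays, and all 7 stood well above background on every array. On the inhibitor arrays 0 of the 7 were called, all 7 had a positive log2 fold change, and the sum ran from 941 to 1431 on MEKi and from 566 to 1056 on Vehicle arrays. The part of Paneth cell number in the Wnt3 values was not tested.

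In the inhibitor arm Wnt3 levels were -0.84, -1.80, -1.22 and -1.91 on the MEKi arrays and -2.40, -3.67, -2.07 and -2.15 on the Vehicle arrays. All 4 MEKi arrays lay above all 4 Vehicle arrays, and the lowest Vehicle value was that of replicate 2, the array with the pancreas markers. The log2 fold change was 1.13 (SE 0.40, limma adjusted p = 0.204), which did not pass the test, and it was 0.77 without that array.

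Wnt4, a ligand known from kidney and reproductive tract development, ran from 0.43 to 1.14 on the Cre control arrays (median 1.03) and from -1.03 to 0.19 on the BRAFV600E arrays (median -0.20). The groups did not overlap. The lowest BRAFV600E values were on slide 1, at -0.72 and -1.03. Means were 0.90 ± 0.28 (SD, n = 6) and -0.34 ± 0.45 (SD, n = 6), a log2 fold change of -1.24 (SE 0.21, and limma adjusted p = 3.61e-03). Within slide 1 it was -1.78 (SE 0.24, limma adjusted p = 8.39e-03), and without the 3 Cre control arrays of out-of-range spike-in slope it was -1.06 and lost the call (limma adjusted p = 0.0777, in a range of 7.78e-04 to 0.240 over the alternatives). MEKi levels of Wnt4 were 0.88, -0.72, 0.68 and 0.63 and Vehicle levels 0.39, 0.62, 1.04 and -0.51. These overlapped widely, with a log2 fold change of -0.02 (SE 0.43).

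Wnt2 lay near the background. Its level ran from -4.59 to -3.85 on Cre control arrays (median -4.11), all 6 well above background, and from -6.52 to -4.18 on BRAFV600E arrays (median -5.26), of which 3 stood well above background. The groups overlapped, since BRAFV600E replicate 3, at -4.18, lay within the Cre control range. The log2 fold change was -1.28 (SE 0.37, limma adjusted p = 0.0416), and the call held under 10 of the 27 alternatives that measured the gene. For MEKi against Vehicle it was 0.50 (SE 0.42, limma adjusted p = 0.630), with MEKi levels of -4.06, -5.43, -3.93 and -4.73 and Vehicle levels of -4.19, -5.43, -5.63 and -4.88.

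Wnt1, the founding member of the family, had the ligand probe with the highest mean signal, which is not a measure of its level against other genes. On Cre control replicates 2, 3 and 5 it was 2.04, 1.89 and 2.44, and on the other Cre control arrays -0.16, -0.10 and 0.74. The 3 high arrays were the Cre control arrays whose spike-in slope was out of range. BRAFV600E levels ran from -1.07 to 0.88 (median 0.08), and the log2 fold change of -1.07 (SE 0.49, and limma adjusted p = 0.162) became -0.09 without the 3 arrays. MEKi levels were 0.44, -0.19, -0.60 and 0.33 and Vehicle levels 0.34, -0.14, 0.30 and -0.06, a log2 fold change of -0.12.

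The other ligands did not pass the test in either comparison. Wnt5b, a ligand of the beta-catenin-independent branch, was nearest in BRAFV600E against Cre control at -0.69 (SE 0.22, limma adjusted p = 0.0607). Its second probe gave -0.35. Wnt5a, its close paralogue made in gut stroma, was at 0.07 (SE 0.18), Wnt6 at -0.82, Wnt10b at -0.65, Wnt9b at -0.53, Wnt9a at -0.41, Wnt7b at -0.18, Wnt11 at -0.01, Wnt2b at 0.15 and Wnt8a at 0.30. In MEKi against Vehicle 12 of the 14 measured ligands had a positive log2 fold change, against 10511 of all 19231 genes tested. Of the ligands 0 passed the test (1 at an unadjusted p under 0.05, Wnt3). Those not yet named ran from 0.19 (Wnt6) to 0.76 (Wnt10b).

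**Figure D2:**
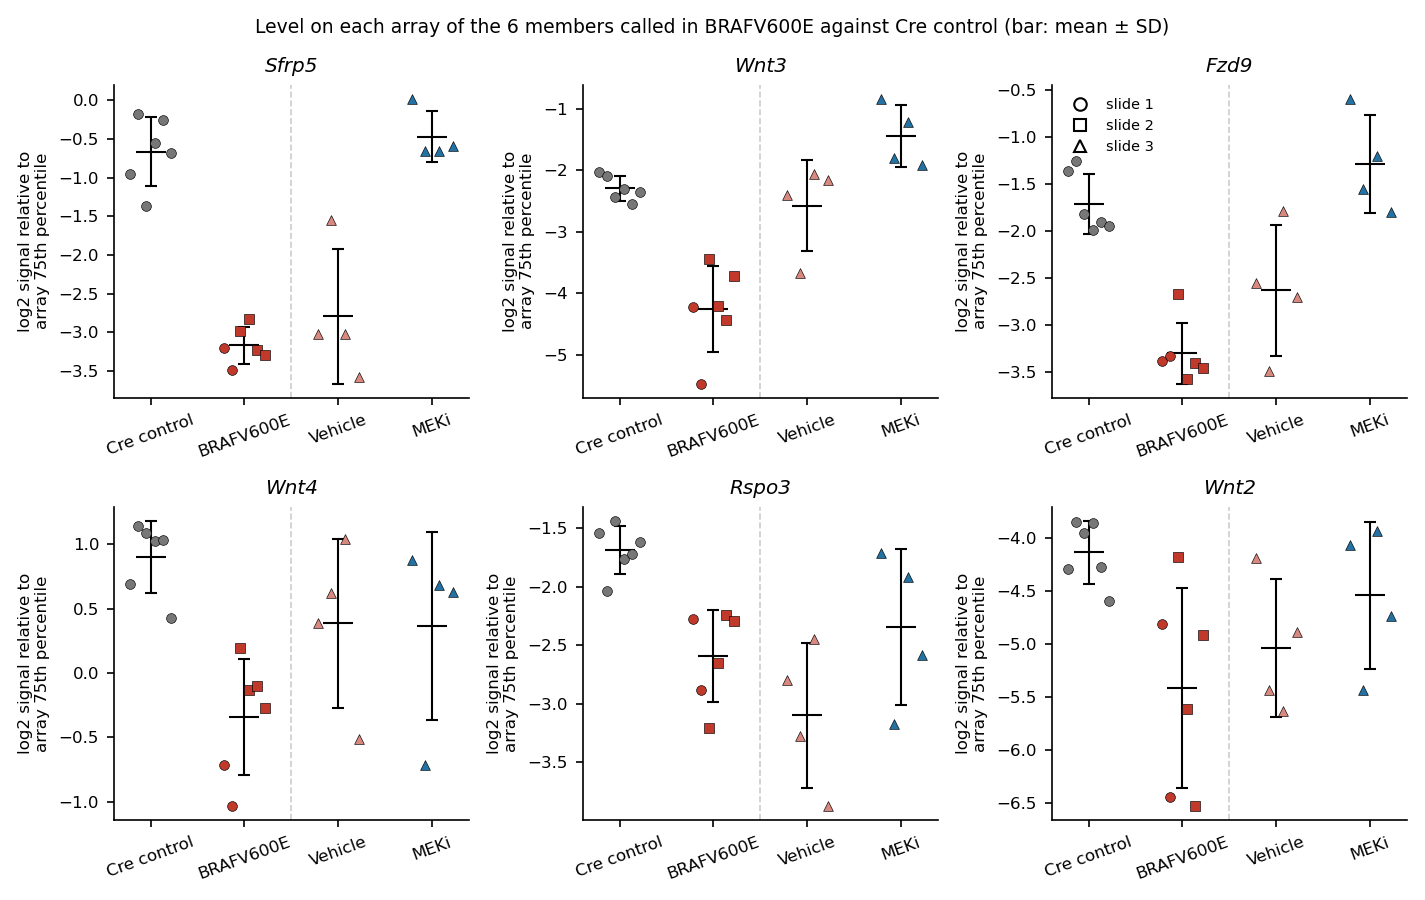
Level (y axis, log2 signal relative to the array's 75th percentile) of the 6 genes that fell in BRAFV600E against Cre control, on each array by group (x axis), with mean ± SD and the slide as marker shape. For Sfrp5, Wnt3, Fzd9, Wnt4 and Rspo3 all BRAFV600E arrays lie below all Cre control arrays, and for Sfrp5 and Wnt3 all MEKi arrays lie above all Vehicle arrays.

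R-spondins are the ligands of the LGR receptors on crypt stem cells and come mainly from stroma. All 3 measured R-spondins had a negative log2 fold change in BRAFV600E against Cre control, and Rspo3 fell. Rspo3, the main R-spondin of the crypt niche, ran from -2.03 to -1.44 on Cre control arrays (median -1.67) and from -3.21 to -2.24 on BRAFV600E arrays (median -2.47), with no overlap. Means were -1.69 ± 0.21 (SD, n = 6) and -2.59 ± 0.40 (SD, n = 6), a log2 fold change of -0.90 (SE 0.18, and limma adjusted p = 9.52e-03). Within slide 1 the value was close, -0.89, but did not pass (limma adjusted p = 0.0736, in a range of 2.16e-03 to 0.797 over the alternatives). A second Rspo3 probe gave -0.17 (SE 0.27), so the probes disagreed in size. MEKi levels were -1.71, -3.18, -1.91 and -2.58 and Vehicle levels -2.80, -3.28, -2.44 and -3.87. They overlapped, with a log2 fold change of 0.75 (SE 0.40, and limma adjusted p = 0.413).

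Rspo1, which feeds the same receptors, varied more. It ran from -3.09 to -0.80 on Cre control arrays (median -1.30) and from -4.76 to -1.31 on BRAFV600E arrays (median -3.10), a log2 fold change of -1.47 (SE 0.56, and limma adjusted p = 0.0980). Without BRAFV600E replicate 3 it was -1.81 and passed (limma adjusted p = 0.0475, in a range of 0.0316 to 0.317 over the alternatives). MEKi levels were -1.42, -1.46, -2.84 and -2.64 and Vehicle levels -1.33, -2.81, -3.32 and -7.16. The low value on Vehicle replicate 4 carried most of the difference: the log2 fold change was 1.56 (SE 1.12) with it and 0.39 without it. Rspo4 was at -0.20 and -0.21 in the 2 comparisons, and neither value passed.

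Markers of the other cells of the tissue are given beside these values. Of 15 fibroblast and telocyte markers 0 were called in either comparison (limma). Their summed signal ran from 46.1 to 116 on Cre control, 59.1 to 104 on BRAFV600E, 39.2 to 65.4 on MEKi and 42.4 to 75.04 on Vehicle arrays, and all 15 stood well above background on every array. Gli1 (-0.48) and Foxl1 (-0.52), markers of cells lying against the epithelium, came nearest in BRAFV600E against Cre control. Of 10 smooth muscle markers, 2 rose (Des and Actg2). Of 9 enteric neuron and glia markers, 2 fell (Uchl1 and S100b) and all 9 had a negative log2 fold change (median -0.61), and of 11 immune markers, 4 fell (Csf1r, Cd8a, Cd3g and Itgax). Of 8 endothelial markers 0 were called. The summed signal of all 10 genes of the neuron and glia list ran from 4.55 to 6.63 on Cre control and 3.00 to 3.98 on BRAFV600E arrays. The immune sum ran from 33.8 to 65.9 and from 23.6 to 35.8. The part of these cells in the ligand and R-spondin values was not tested.

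**Figure D3:**
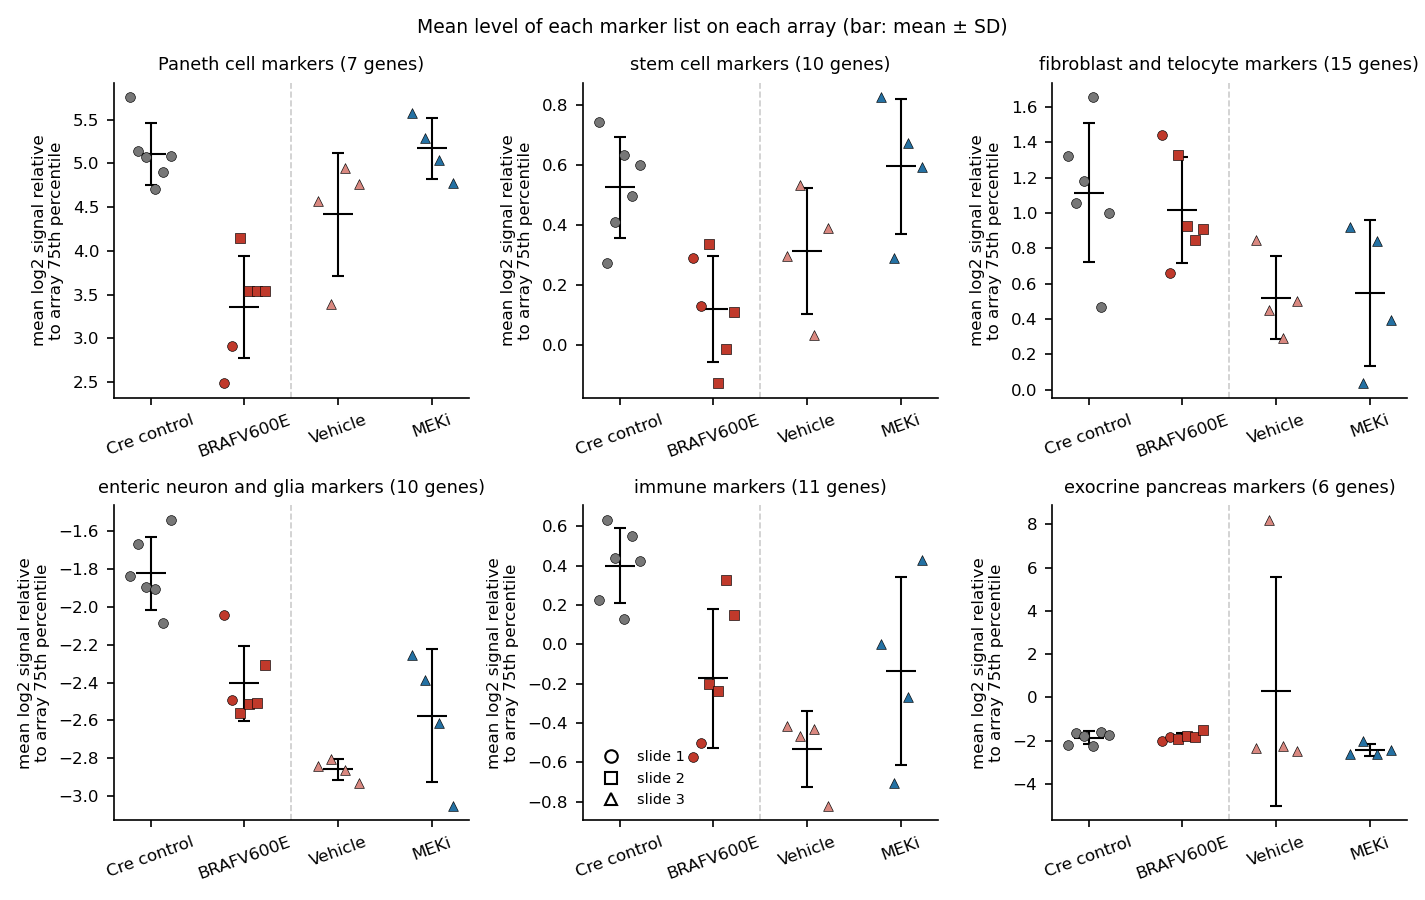
Mean log2 signal relative to the array's 75th percentile (y axis) of 6 marker lists on each array by group (x axis), with mean ± SD and the slide as marker shape. The neuron and glia mean is over all 10 genes of that list. Paneth cell markers lie lower on every BRAFV600E than on every Cre control array, neuron and glia markers lie lower on all BRAFV600E arrays but replicate 1 (-2.04, against -2.08 on the lowest Cre control array), fibroblast and telocyte markers overlap widely, and 1 Vehicle array (replicate 2) reaches 8.22 for pancreas markers.

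Frizzled receptors did not move one way. Of 9 measured in BRAFV600E against Cre control, 5 had a positive and 4 a negative log2 fold change, and Fzd9 alone passed the test. Fzd9, a receptor known from brain and bone, was measured by a probe at chr5:135724815-135724874 (mm9). It ran from -1.99 to -1.26 on Cre control arrays (median -1.86) and from -3.57 to -2.67 on BRAFV600E arrays (median -3.39), well above background on all 12. Every BRAFV600E array lay below every Cre control array. The means were -1.71 ± 0.32 (SD, n = 6) and -3.30 ± 0.32 (SD, n = 6), a log2 fold change of -1.59 (SE 0.19, and limma adjusted p = 3.47e-04), or 3.01-fold lower. Within slide 1 it was -1.64 (SE 0.25, limma adjusted p = 0.0135).

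MEKi levels of Fzd9 were -0.59, -1.55, -1.20 and -1.80, and Vehicle levels were -2.55, -3.49, -1.79 and -2.70. Of the 4 MEKi arrays 3 lay above all Vehicle arrays. The log2 fold change of 1.35 (SE 0.39, and limma adjusted p = 0.137) did not pass. It passed when all 20 arrays shared 1 fit (limma adjusted p = 0.0242, in a range up to 0.435 over the alternatives), and it was 1.06 without Vehicle replicate 2.

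Fzd6, a receptor of planar polarity signalling, and Fzd7, a Wnt receptor of crypt stem cells, had positive values in the first comparison and negative values in the inhibitor arm. In BRAFV600E against Cre control Fzd6 was at 0.59 (SE 0.20, limma adjusted p = 0.0742) and Fzd7 at 0.57 (SE 0.33, limma adjusted p = 0.264). In MEKi against Vehicle they were at -0.52 (SE 0.20, limma adjusted p = 0.255) and -0.56 (SE 0.19, limma adjusted p = 0.199). None of these values passed. Fzd2 was at 0.26 in the first comparison and 0.66 (SE 0.19, limma adjusted p = 0.140) in the second, where its groups did not overlap: MEKi levels were -0.67, -1.43, -0.95 and -1.18 and Vehicle levels -1.44, -1.77, -1.72 and -1.92.

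Fzd4, the receptor of Norrin in retinal vessels, had the Frizzled probe with the highest mean signal. It ran from -0.80 to -0.14 on Cre control arrays (median -0.36) and from -0.99 to -0.09 on BRAFV600E arrays (median -0.35), a log2 fold change of -0.03 (SE 0.17). On the MEKi and Vehicle arrays its log2 fold change was 0.40 (SE 0.25), with overlapping ranges of -0.69 to 0.26 and -1.01 to -0.26. Fzd5, the receptor needed for Paneth cell maturation, had probes that disagreed in sign in BRAFV600E against Cre control, at 0.36 and -0.62, and neither passed. Fzd8 probes disagreed likewise, at 0.10 and -1.39. Fzd1 was at -0.38 and 0.12 in the 2 comparisons and Fzd3 at -0.53 and -0.35, with no call.

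Sfrp5 had the greatest log2 fold change of the measured genes in both comparisons. It encodes a secreted Frizzled-related protein, a Wnt-binding antagonist, and was measured by a probe at chr19:42272509-42272568 (mm9) that stood well above background on all 20 arrays. Its level ran from -1.36 to -0.17 on the Cre control arrays (median -0.62) and from -3.49 to -2.83 on the BRAFV600E arrays (median -3.22). The gap between the groups was wider than the range of either. Means were -0.66 ± 0.45 (SD, n = 6) and -3.17 ± 0.24 (SD, n = 6), a log2 fold change of -2.51 (SE 0.20, and limma adjusted p = 2.21e-05), or 5.69-fold lower. Within slide 1 it was -2.69 (SE 0.32, limma adjusted p = 5.34e-03).

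On the MEKi arrays Sfrp5 was at 0.02, -0.66, -0.66 and -0.59, and on the Vehicle arrays at -3.02, -1.54, -3.03 and -3.58. All MEKi arrays lay above all Vehicle arrays, and the highest Vehicle value was that of replicate 2, the array with the pancreas markers. Means were -0.47 ± 0.33 (SD, n = 4) and -2.79 ± 0.87 (SD, n = 4), a log2 fold change of 2.32 (SE 0.41, and limma adjusted p = 0.0342), or 4.99-fold higher. Without Vehicle replicate 2 it was 2.74 (SE 0.23, limma adjusted p = 6.85e-03). Leaving out any 1 of the other 7 arrays gave 2.06 to 2.38 and lost the call (limma adjusted p from 0.0574 to 0.112). With Y-linked signal as a covariate it was 2.55 (SE 0.52, limma adjusted p = 0.104). The means of the MEKi and Cre control arrays, -0.47 and -0.66, stand side by side without a test, since slide and tamoxifen course differ.

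The other secreted Frizzled-related proteins did not pass the test in either comparison. Sfrp1 was at -0.03 (SE 0.32) in BRAFV600E against Cre control and -0.24 (SE 0.40) in MEKi against Vehicle. Sfrp2, made by stromal cells, was at -0.79 (SE 0.81) and -0.52 (SE 0.97), and spread widely on the Vehicle arrays (SD 2.11, n = 4). Sfrp4 was at 0.36 (SE 0.81) in the second comparison.

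**Figure D4:**
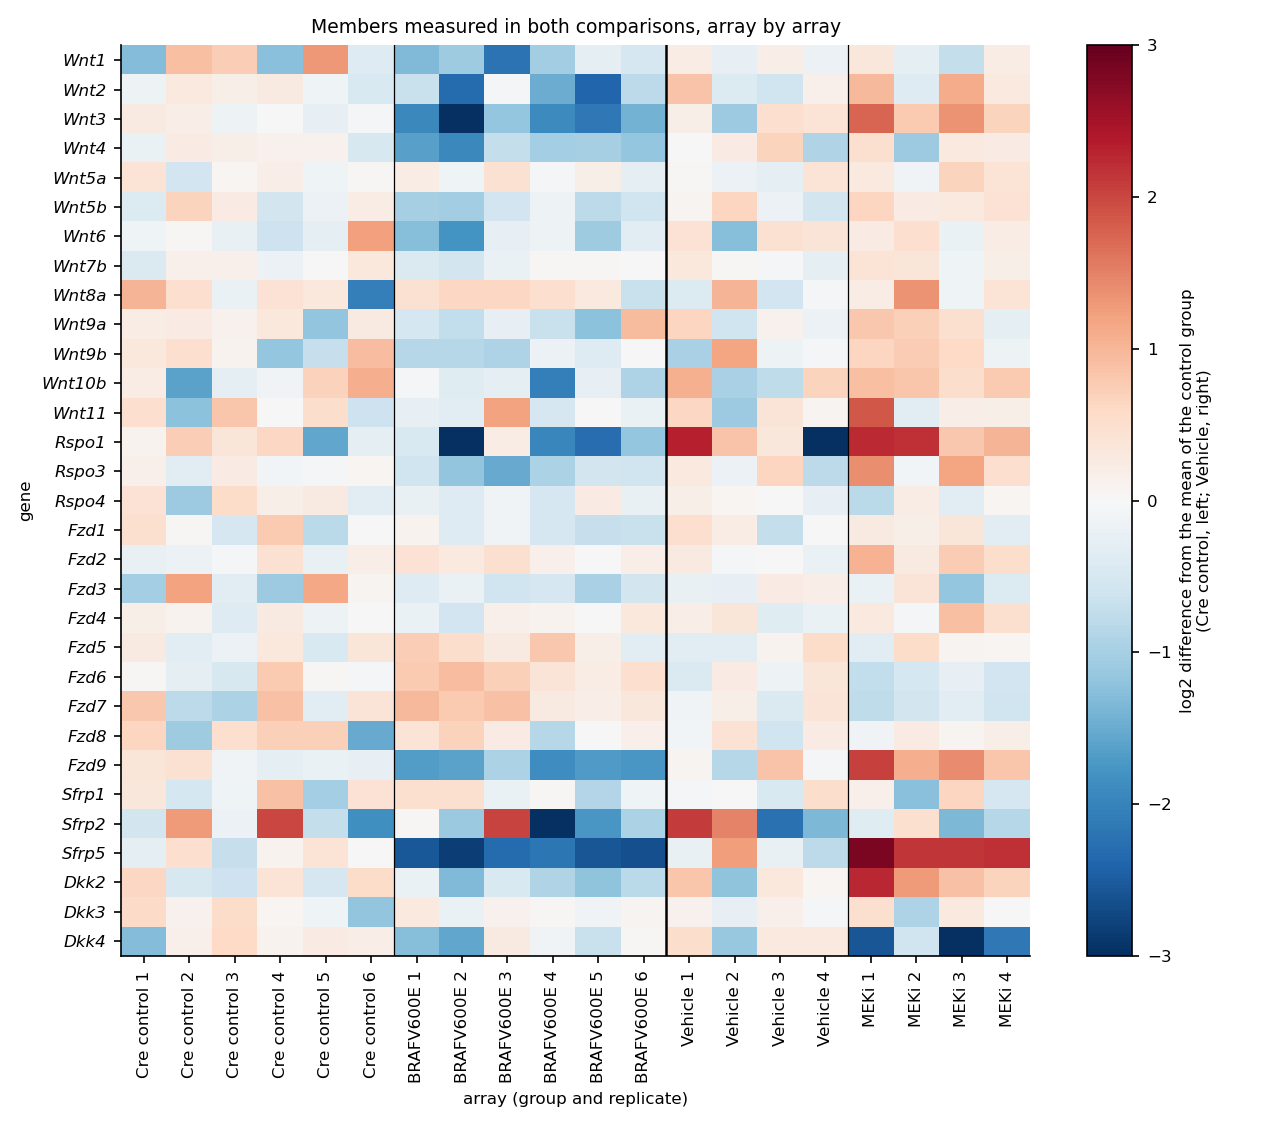
Log2 difference of each of the 31 genes measured in both comparisons (rows) on each array (columns) from the mean of its control group, Cre control for the left 12 arrays and Vehicle for the right 8, with colours that saturate at 3. Sfrp5, Wnt3 and Fzd9 are blue on all 6 BRAFV600E arrays and red on all 4 MEKi arrays. In the Rspo1 row, replicate 4 is the Vehicle array that reaches the blue end of the scale.

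Of the Dickkopf genes 0 of 3 passed the test in either comparison (limma, 1 of 3 in BRAFV600E and 2 of 3 in MEKi at an unadjusted p under 0.05). Of the 2 in MEKi, Dkk2 met the filter through the MEKi arrays alone, with 0 of 4 Vehicle arrays well above background. Dkk4, an LRP-binding antagonist that is itself a Wnt target, had the greatest difference of the 3. Its MEKi levels were -6.01, -4.04, -6.68 and -5.59, with 2 of the 4 arrays well above background, and its Vehicle levels -2.90, -4.57, -3.14 and -3.15. Of the MEKi arrays 3 lay below all Vehicle arrays. The log2 fold change of -2.14 (SE 0.59, and limma adjusted p = 0.125) became -2.65 and passed without MEKi replicate 2 (limma adjusted p = 0.0402, in a range of 0.0114 to 0.298 over the alternatives). In BRAFV600E against Cre control Dkk4 ran from -4.53 to -2.72 (median -3.36) against -4.28 to -2.37 (median -2.81), a log2 fold change of -0.55 (SE 0.37), or -1.41 with slide as a block (limma adjusted p = 0.0581, in a range up to 0.842 over the alternatives). Dkk4 had the same sign in both comparisons, unlike Sfrp5.

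Dkk2, another LRP-binding antagonist, was at -0.82 (SE 0.28, limma adjusted p = 0.0742) in BRAFV600E against Cre control. Without the 3 Cre control arrays of out-of-range spike-in slope it was -1.35 and passed (limma adjusted p = 0.0305, in a range of 6.73e-03 to 0.989 over the alternatives). Its probe stood well above background on 0 of 4 Vehicle and 4 of 4 MEKi arrays, at least 1.11-fold higher (limma adjusted p = 0.242). Dkk3, the family member that does not bind LRP, had the Dickkopf probe with the highest mean signal and ran from -0.11 to 1.66 on Cre control arrays (median 1.17) and from 0.88 to 1.38 on BRAFV600E arrays (median 1.13). Its log2 fold change was 0.04 (SE 0.26) there and -0.04 (SE 0.30) in MEKi against Vehicle, where levels were 1.02, -0.40, 0.83 and 0.54 against 0.68, 0.30, 0.68 and 0.49.

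**Figure D5:**
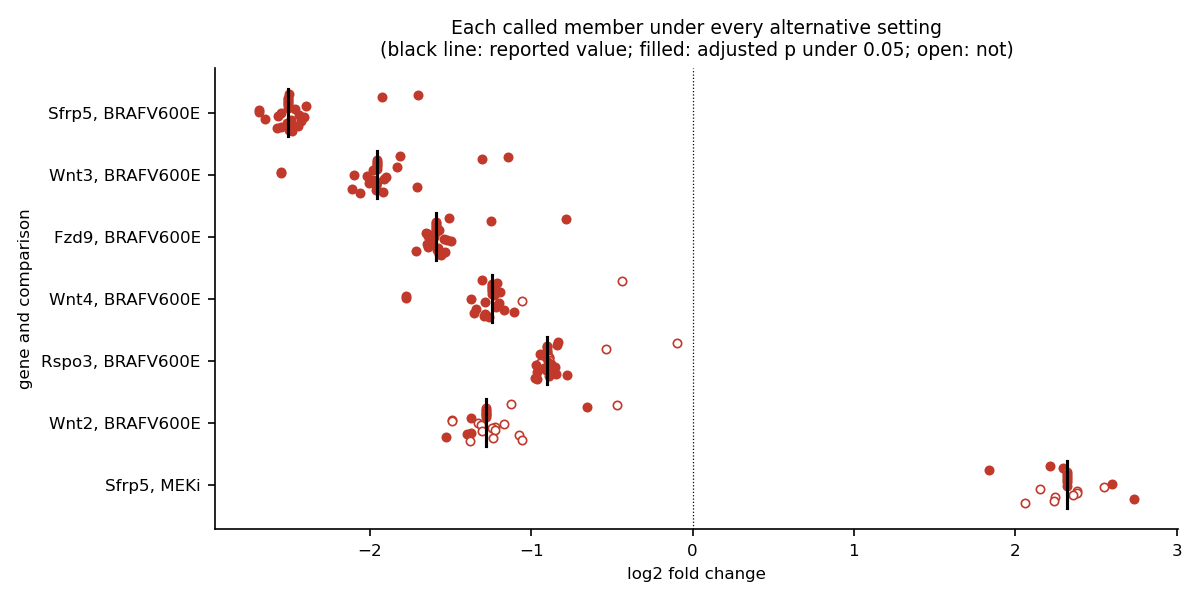
Log2 fold change (x axis) of each called gene and comparison (y axis) under every alternative setting, filled where the adjusted p is under 0.05, with the reported value as a black line. In BRAFV600E against Cre control Sfrp5, Wnt3 and Fzd9 are filled throughout, Wnt2 is mostly open, and Sfrp5 in MEKi against Vehicle is filled under 11 of 20 settings.

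Outside these families 12 of the 85 pathway genes tested in 7 lists passed the test in BRAFV600E against Cre control (14.1%, against 12.4% of all genes), 7 higher and 5 lower. Of 11 measured further secreted or Frizzled-trapping modulators, 2 rose in BRAFV600E against Cre control, Shisa2 (1.09, SE 0.19), which retains Frizzleds in the endoplasmic reticulum, and Sulf2 (0.65, SE 0.15), a heparan sulfate sulfatase. In the same list Igfbp4 fell by 1.17 on the log2 scale. Of 14 co-receptors and other receptors, Kremen2, a Dickkopf co-receptor, rose by 1.55 (SE 0.20, limma adjusted p = 7.58e-04) and Lgr5, an R-spondin receptor of stem cells, fell by 0.84. Of 20 intracellular beta-catenin regulators Ctnnb1 rose (0.82) and Axin2, the classic feedback inhibitor, fell by 0.72. Of 13 TCF/LEF factors and partners the co-repressor Tle3 fell by 0.80. Of 18 planar polarity and calcium branch genes Camk2d (0.99), Rac1 (0.62) and Daam1 (0.42) rose and Celsr1 fell by 1.00. Kremen2 kept its call under 28 of 28 alternatives, Ctnnb1 under 19, Igfbp4 under 16, Axin2 under 13, Lgr5 under 10 and Daam1 under 6.

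Receptor turnover and Wnt secretion genes had 0 calls in BRAFV600E against Cre control (limma). Of the 5 turnover genes Znrf3 (-0.79, limma adjusted p = 0.116) and Rnf43 (-0.31) came nearest. Of the 4 secretion genes Vps35 (0.76, limma adjusted p = 0.0545) and Wls (-0.47, limma adjusted p = 0.0615), the Wnt cargo receptor, came nearest. In MEKi against Vehicle the single call among the 84 genes of these lists (1.19%, against 1.98% of all genes) was Bcl9l, a beta-catenin co-activator, which rose by 0.75 (SE 0.15, limma adjusted p = 0.0489) and kept its call under 6 of 20 alternatives.

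Among 16 feedback targets of the pathway, Ascl2, a stem cell transcription factor, had the same directions as Sfrp5. It fell by 1.52 on the log2 scale in BRAFV600E against Cre control (SE 0.11, limma adjusted p = 1.57e-05) and rose by 1.00 in MEKi against Vehicle (SE 0.17, limma adjusted p = 0.0309), with no overlap between groups in either. Axin2 and Lgr5, named above, were the other targets that fell in the first comparison, and Myc rose by 0.94. In the second comparison Cd44 fell by 0.91 and Ascl2 was the single target that rose. Axin2, Lgr5 and Myc lost their calls with slide as a block, whereas Ascl2 kept its call. Among the inhibitor arrays the calls of Ascl2 and Cd44 held under 10 and 8 of 20 alternatives. Of 10 stem cell markers, 3 fell in BRAFV600E against Cre control (Ascl2, Tnfrsf19 and Lgr5) and 0 rose, and in MEKi against Vehicle 1 rose (Ascl2).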

How the data were processed

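RNA of intestinal tissue of 20 mice was measured on 1-colour Agilent SurePrint G3 Mouse arrays of 62976 spots. Per the file headers, the authors extracted the scans with Agilent Feature Extraction (10.5.1.1 in the submitters' processing notes) and deposited a background-subtracted processed intensity per spot, on a linear scale and not normalized between arrays, with the mean and background intensity. They also deposited marks of spots well above background or outlying, which served as filters and hold no intensity. The authors' series matrix holds the same processed intensity (100% of spots within 0.5%).

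From these files control and outlier spots were left out, the copies of a probe were averaged, and log2 values were centred on the 75th percentile of their array. Probe names were updated through RefSeq (GRCm38.p6, for names alone). Accessions gave 34023 names, symbols 9992 and synonyms 318, and 12272 probes without a symbol were not tested. A gene was represented by its probe of highest mean signal and tested where at least 50% of the arrays compared had that probe well above background. Probe positions are those in the files (mm9). Groups were compared with limma 3.58.1 (R 4.3.3; lmFit and eBayes, Benjamini-Hochberg over all genes tested, threshold 0.05), each comparison fitted alone. The script was tested on simulated data. Arrays give no read depth, so the number of arrays and the signal over background limit the precision. The share of spots well above background was 66.5% to 76.8% on Cre control and 61.0% to 72.9% on BRAFV600E arrays. It was 70.6% to 74.5% on MEKi and 60.8% to 72.6% on Vehicle arrays. The part of this share in the differences between groups was not tested. Saturated spots numbered 0. Groups came from the labels. The treatment text in the labels, which describes another drug, fits none of the 4 groups and was not used. Replicate numbers only name arrays and pair none of them.

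The genes, the gene lists and the tests were chosen with earlier results of these data known. Genes given array by array were those called in either comparison and, in each family, the gene with the highest mean signal and that with the greatest log2 fold change, and listed pathway genes were named where called or, failing that, for the smallest p. Lists not described above gave 3 of 10 epithelial markers higher in BRAFV600E against Cre control and 1 of 10 lower in MEKi against Vehicle, and 3 of 11 small intestine markers higher and 1 of 6 colon markers lower in the first comparison. Of the exocrine pancreas markers 1 of 6 was higher in BRAFV600E, and 0 of 8 were called in MEKi against Vehicle. The alternatives tried numbered 28 for BRAFV600E against Cre control and 20 for MEKi against Vehicle. The result of 1 gene of the neuron and glia list is not reported here. Promoters came from RefSeq (GRCm38) and were searched with Python.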

Additional observations from a re-analysis of the deposited data

Results flagged for a closer look

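In 10 of 130 sets of arrays (1 gene in 1 group), the highest or lowest array lay apart from the others by more than Dixon's 95% critical gap, a share of 7.69%. Chance flags about 1 in 20 such sets (5%). In the Cre control group these were Dkk4 on replicate 1, lowest at -4.28 (next -2.87), Wnt6 on replicate 6, highest at -0.99 (next -2.19), and Wnt9a on replicate 5, lowest at -5.09 (next -3.78). In the BRAFV600E group they were Fzd9 on replicate 3, highest at -2.67 (next -3.33), Wnt11 on replicate 3, highest at -1.43 (next -2.65), and Wnt8a on replicate 6, lowest at -5.48 (next -4.54). In the Vehicle group Dkk4 at -4.57 (next -3.15) and Wnt6 at -3.91 (next -2.24) were both lowest on replicate 2, the array with the high pancreas marker signal. In the MEKi group Sfrp5 on replicate 1 was highest at 0.0226 (next -0.59) and Wnt4 on replicate 2 lowest at -0.72 (next 0.63). All values are log2 signal relative to the array's 75th percentile, and the cause of these values was not tested.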

How the results depend on the processing

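The count of genes of these families called in BRAFV600E against Cre control was 6 as reported and 4 to 8 under the alternatives other than normexp background correction, which gave 13. Leaving out 1 array at a time gave 5 to 7. Within slide 1 alone it was 4, with slide as a block 5, and without the Cre control arrays of out-of-range spike-in slope 4. Sfrp5, Wnt3 and Fzd9 kept their calls and direction under every alternative that measured them. Wnt4 kept its call under 26 of 28, Rspo3 under 23 of 28 and Wnt2 under 10 of 27. In MEKi against Vehicle the count was 1 as reported, 0 with no filter on dim probes (where Sfrp5 was still 2.32, adjusted p = 0.0512 over more genes), 0 with Y-linked signal as a covariate, 2 with array weights, 3 with all 20 arrays in 1 fit, and 0 to 1 on leaving out 1 array at a time. Counts of 0 are limma's, beside 10 genes at an unadjusted p under 0.05 with no filter, 3 with the covariate and 4 to 9 on leaving out an array. The one reversed value was Wnt2b in BRAFV600E against Cre control, 0.15 as reported and -0.55 with normexp. Of 877 values of single genes under alternatives in the first comparison, 24 lost and 23 gained a call and 61 uncalled values changed sign, and of 644 in the second the numbers were 9, 4 and 29. Except where fewer arrays, more genes or another array scale make up the alternative, the cause was not tested. The share of all genes called ran from 2.20% to 49.0% in the first comparison, the latter without scaling between arrays, where Fzd2, Fzd5, Fzd6, Fzd7 and Wnt5a passed as higher, and from 0.307% to 5.87% in the second. No paired analysis was possible because replicate numbers only name the arrays. Among the genes whose probe was not well above background on every array were Wnt2, Wnt3, Dkk2, Dkk4 and Sfrp2. How far low signal limited their values was not tested.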
